A study of Homo sapiens with 6 samples.

Results

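The genes described here build, transfer and trim the asparagine-linked (N-linked) glycans of secreted and membrane proteins. They are 48 listed genes, from the enzymes that charge dolichol with sugars to those that add antennae in the Golgi. Members were matched by gene symbol to microarray probe sets annotated to a single gene, and 46 of the 48 had at least 1 such probe set, among 19775 genes with one in all. SRD5A3 and ALG11 had none, and their transcript levels are not analysed here. MAN1C1 and MGAT3 had a mean log2 value below 4 and were not tested, which left 44 of the 48 in the test, among 10733 tested genes.

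N-glycan synthesis starts on the cytosolic face of the endoplasmic reticulum (ER), where sugars are added 1 by 1 to the lipid carrier dolichol. The chain is flipped into the lumen, extended with mannose and glucose, and moved as a block to asparagine residues of nascent proteins by the oligosaccharyltransferase complex. Glucosidases and mannosidases then trim it during folding control, and Golgi enzymes add branches, galactose, core fucose and, last, sialic acid. Sialic acid comes from the pathway that GNE, the epimerase and kinase for its precursor, starts, so the genes described here act before GNE's product is attached.

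The samples are 6 microarrays of Capan-1, an established human pancreatic carcinoma cell line. In 3 of them the cells had received small interfering RNA against GNE (siGNE), and in 3 a control siRNA labelled allStar. Both groups went through the same 2 rounds of siRNA transfection, with 48 h between them, and RNA was taken 72 h after the last. The labels do not say how many siRNA sequences were used against GNE or whether each array had its own culture. P-values therefore rest on a spread between arrays that may be technical. In fits with the title number as a block, it is the spread of the differences between arrays of the same number. Transcripts were measured in 1 cell line, and neither proteins nor glycans were. The titles number the arrays 1 to 3 in each group, and a pair here is the siGNE and the control array with 1 number.

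The values are log2 expression values as the authors normalized them, with array medians between 2.96 and 3.02 and 40.3% to 40.6% of probe sets above 4 on each array. Values near the array median are close to background, where differences can be lost. GNE itself had log2 values of 8.39, 9.86 and 9.57 in siGNE cells, against 11.12, 11.47 and 10.86 in control cells (pairs 1, 2 and 3). It fell by 1.88 on the log2 scale (SE 0.29, limma adjusted p 0.0348, and 0.131 in a fit without the pair as a block), which leaves 27.2% of the control level, and the groups did not overlap. All 9 markers of ductal epithelium (KRT7, KRT8, KRT18, KRT19, EPCAM, CDH1, MUC1, CEACAM5 and CEACAM6) had a mean above 4 and the highest of their means was 15.3. One of them, CEACAM5, rose by 0.56 (SE 0.11, limma adjusted p 0.0491, and 0.423 without the block), with overlapping groups. Of 5 fibroblast markers only COL1A1 did, and it rose by 0.71 with overlapping groups (SE 0.13, limma adjusted p 0.0441, and 0.512 without the block), while COL1A2, COL3A1, PDGFRB and DCN had means below 4, the lowest at 2.45. The mean over the fibroblast markers ran from 3.78 to 4.02 on siGNE arrays, against 3.65 to 3.91 on control arrays, and its part in the results was not tested. LYZ was the only one of 3 leukocyte markers with a probe set that lay above 4, at 11.10 in siGNE and 11.07 in control cells, and none of 3 endothelial markers did.

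GNE silencing was followed by lower transcript levels of 6 N-glycan genes and a higher level of 1. The branching enzyme MGAT4B rose 1.92-fold. The glucosyltransferases ALG6 and ALG8, the oligosaccharyltransferase subunit MAGT1, the glucosidase MOGS, the folding sensor UGGT1 and the mannosidase MAN1A2 fell, to between 42.8% and 71.7% of the control level. The other 37 of the 44 did not pass the test. The test was limma on all probe sets with a mean above 4, siGNE minus control with the pair as a block (the replicate block), and a gene passed at a Benjamini-Hochberg adjusted p under 0.05. For UGGT1 and MAN1A2 only the probe set used passed, and the other tested probe sets of MAN1A2 were higher in siGNE cells. Neither gene passed with its probe sets averaged. The 7 genes that passed are 15.9% of the tested members, and the same test called 9.89% of all tested genes. By direction, 2.27% of the members rose, against 4.11% of all tested genes, and 13.6% fell, against 5.79%. Of the 44 members 33 had a negative difference, or 75.0%, against 53.0% of all tested genes. The median difference of the members was -0.09 on the log2 scale, and that of all tested genes was -0.02. In single pairs the members' median was -0.12, -0.12 and -0.15. All 7 calls were lost in limma without the replicate block, with adjusted p between 0.0604 and 0.345, where 3 of the 10733 genes passed (0.028%), all of them higher (0.028%) and none lower (0%). In that fit 8 members had an unadjusted p under 0.05, 1 higher and 7 lower, against 16.3% of all tested genes, 5.85% higher and 10.4% lower.

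**Figure D1:**
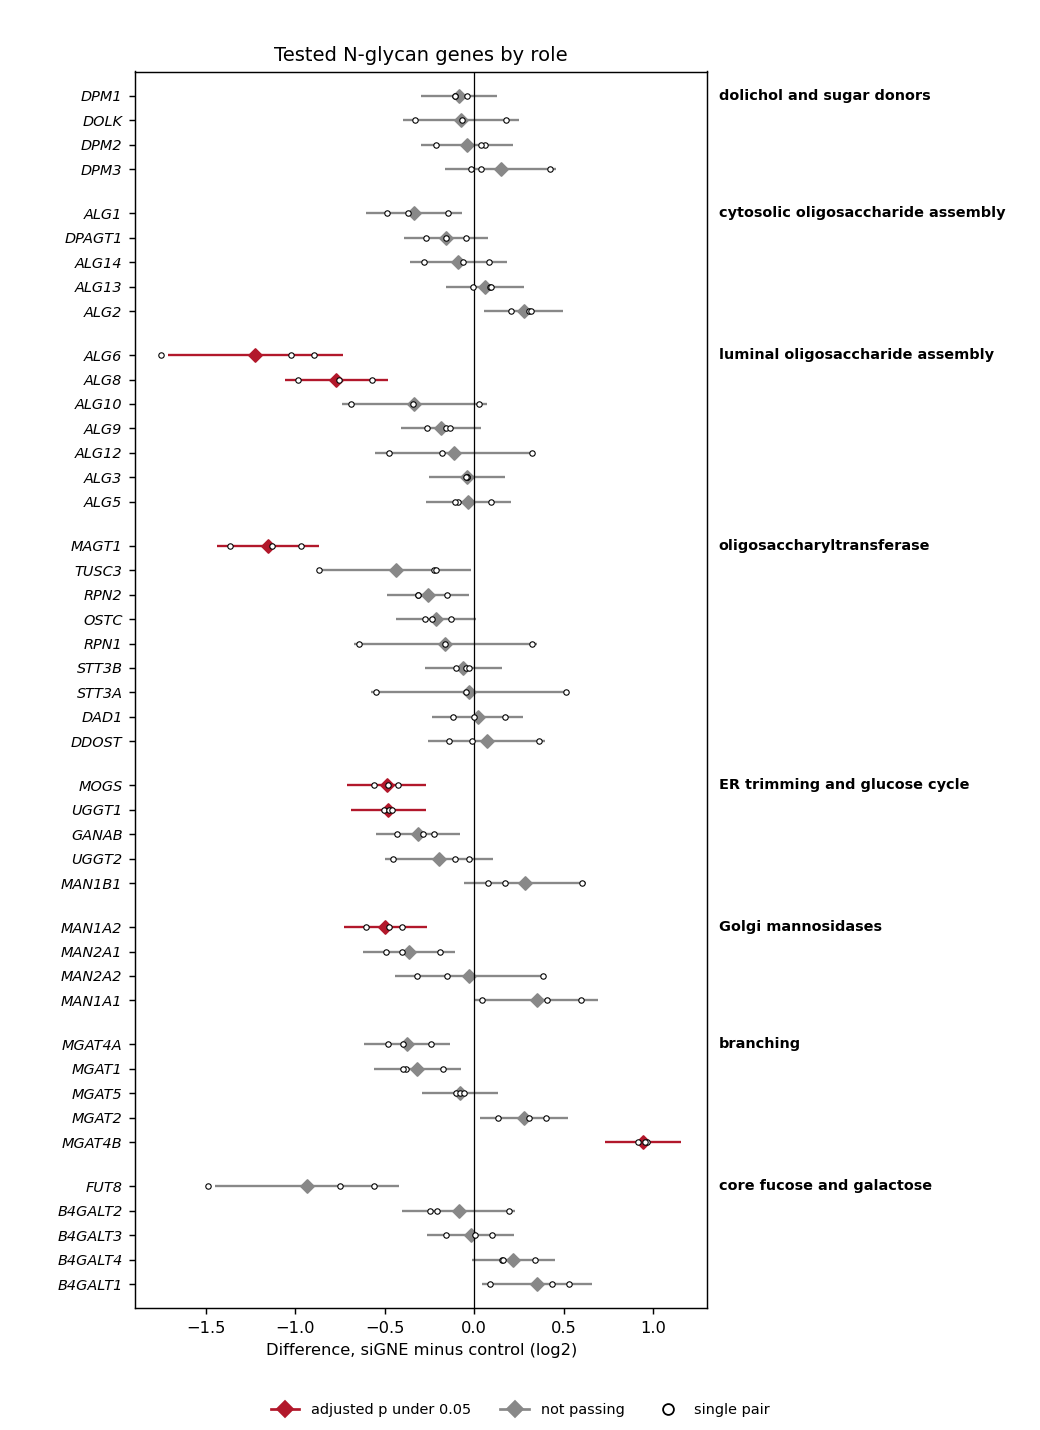
Differences between siGNE and control cells for the 44 tested N-glycan genes, grouped by role, on the log2 scale. Diamonds are limma estimates with the replicate block, lines their 95% intervals and open circles the 3 single pairs. Red marks the 7 genes that passed, MGAT4B on the right and ALG6, ALG8, MAGT1, MOGS, UGGT1 and MAN1A2 on the left of zero.

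The upstream sequences of the 4 members with the largest changes among those that passed are shown because 3 of them fell while MGAT4B rose. They are the 250 bases before the most upstream annotated start of each gene, in build GRCh38.p14 from RefSeq, printed 5′ to 3′ on the gene's strand, with capitals for matches to the motifs searched. ALG6 lies at chr1:63367377-63367626 on the plus strand, ALG8 at chr11:78139627-78139876, MAGT1 at chrX:77895569-77895818 and MGAT4B at chr5:179806867-179807116, these on the minus strand. MAGT1 and MGAT4B have 2 annotated starts each.
ALG6: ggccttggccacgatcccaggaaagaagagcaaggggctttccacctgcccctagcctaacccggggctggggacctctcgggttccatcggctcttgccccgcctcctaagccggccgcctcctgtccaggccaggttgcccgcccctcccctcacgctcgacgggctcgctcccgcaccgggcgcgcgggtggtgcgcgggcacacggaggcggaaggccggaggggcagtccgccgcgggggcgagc
ALG8: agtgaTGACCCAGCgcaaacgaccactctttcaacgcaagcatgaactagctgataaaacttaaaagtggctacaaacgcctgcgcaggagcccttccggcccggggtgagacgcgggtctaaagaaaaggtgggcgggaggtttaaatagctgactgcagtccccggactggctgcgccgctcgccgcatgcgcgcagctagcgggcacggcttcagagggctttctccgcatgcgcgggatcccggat
MAGT1: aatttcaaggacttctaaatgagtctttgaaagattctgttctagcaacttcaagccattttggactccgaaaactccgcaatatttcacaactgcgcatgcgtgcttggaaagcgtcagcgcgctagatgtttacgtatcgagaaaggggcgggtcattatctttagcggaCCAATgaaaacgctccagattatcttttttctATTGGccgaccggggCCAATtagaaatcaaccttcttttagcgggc
MGAT4B: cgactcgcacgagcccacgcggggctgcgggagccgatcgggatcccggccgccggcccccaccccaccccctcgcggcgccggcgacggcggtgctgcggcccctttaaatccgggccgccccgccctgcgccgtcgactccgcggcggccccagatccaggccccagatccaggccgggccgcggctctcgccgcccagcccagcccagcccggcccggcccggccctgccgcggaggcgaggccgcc
The motifs, searched on both strands, were CCAAT (the box bound by NF-Y), the ER stress response element (a CCAAT box, 9 bases of any kind and CCACG, so each match also counts as a CCAAT box), TGATGNAA (the element of CHOP and ATF4) and TGACNNNGC (the antioxidant element of NRF2). MAGT1 held 3 CCAAT boxes, ALG8 held 1 antioxidant element, and ALG6 and MGAT4B held no match to these letters. A CCAAT box stood in 18 of the 40 listed members with a RefSeq window, or 45.0%, against 33.0% of 27305 such windows. The antioxidant element stood in 22.5% of the members' windows, against 11.1% of all. Among the members that passed and have such a window, only MAGT1 held a CCAAT box and only ALG8 the antioxidant element. Windows were counted whether or not the gene's expression was tested. The 27305 windows therefore include those of genes outside the 10733 tested. The untested ALG11 and MAN1C1 are among those with a CCAAT box, and SRD5A3 among those with the antioxidant element. The ER stress response element stood in 1 member window, that of ALG12, and the CHOP and ATF4 element in 1, that of FUT8, each 2.50% of the members' windows, against 0.0769% and 3.19% of all. A match to letters is a description of the sequence and does not show that a factor binds there.

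None of the 4 tested genes that charge dolichol and its sugars passed. These are the dolichol kinase DOLK and the subunits of dolichol-phosphate mannose synthase, the catalytic DPM1 and its partners DPM2 and DPM3. DPM1 had log2 values of 12.52, 12.44 and 12.49 in siGNE cells, against 12.63, 12.54 and 12.53 in control cells. The values of the groups did not overlap, but the difference was only -0.09, with a 95% interval from -0.30 to 0.13 (SE 0.08, limma adjusted p 0.523). DPM3 had 9.89, 9.61 and 8.90 in siGNE cells, against 9.47, 9.58 and 8.91 in control cells. Its groups overlapped, and pair 1 carried most of the difference of 0.15 (SE 0.12, limma adjusted p 0.455). DOLK and DPM2 differed by -0.07 and -0.04.

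On the cytosolic face none of 5 tested enzymes passed, and they did not share a direction. DPAGT1, which puts the first sugar on dolichol phosphate, differed by -0.16. ALG13 and ALG14, which together add the next one, differed by 0.06 and -0.09. ALG1, the enzyme that adds the first mannose, had log2 values of 9.26, 9.04 and 8.93 in siGNE cells, against 9.63, 9.53 and 9.08 in control cells. It was lower in each of the 3 pairs, the groups overlapped, and the difference of -0.34 did not pass (SE 0.10, limma adjusted p 0.104). ALG2, which adds the mannoses after that, had 11.88, 11.80 and 11.63 in siGNE cells, against 11.57, 11.48 and 11.42 in control cells. All its siGNE values lay above all its control values, and its difference of 0.28 had the same adjusted p of 0.104 in limma (SE 0.08).

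In the ER lumen, the enzymes that add the first and the second glucose to the finished chain fell. ALG6, which adds the first, had log2 values of 7.09, 7.70 and 7.57 in siGNE cells, against 8.84, 8.72 and 8.47 in control cells. The groups were wholly apart, and the gap was widest in pair 1 (-1.75) and smaller in pairs 2 and 3 (-1.02 and -0.90). ALG6 fell by 1.22 (SE 0.19), to 42.8% of the control level, with a limma adjusted p of 0.0348 (0.0945 without the block). Only 46 of the 10733 tested genes had a more negative difference. ALG8, which adds the second glucose, had 10.01, 10.47 and 9.86 in siGNE cells, against 10.99, 11.04 and 10.62 in control cells. Every siGNE value lay below every control value. ALG8 fell by 0.77 (SE 0.11), to 58.6% of the control level, with a limma adjusted p of 0.0321 (0.186 without the block).

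The other 5 genes grouped with the luminal steps did not pass. ALG10 adds the last glucose, and its log2 values were 5.82, 5.70 and 5.83 in siGNE cells, against 6.51, 6.04 and 5.80 in control cells. Its groups overlapped, and its difference of -0.33 had a wide 95% interval, from -0.74 to 0.07 (SE 0.16, limma adjusted p 0.217). Without pair 1 it was -0.16, and without pair 3 it was -0.52. Probe sets that ALG10 shares with its near-identical copy ALG10B were not used, so its value is uncertain. ALG5, which makes the glucose donor that ALG6, ALG8 and ALG10 use, differed by -0.03, with an interval from -0.27 to 0.20. The mannosyltransferase ALG9 had 8.61, 8.82 and 8.13 in siGNE cells, against 8.76, 8.95 and 8.40 in control cells. ALG9 differed by -0.19 (SE 0.09, limma adjusted p 0.215), while its other tested probe set differed by 0.22 and was higher in 3 of 3 pairs. The mannosyltransferases ALG3 and ALG12 differed by -0.04 and -0.11.

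Of the 9 oligosaccharyltransferase members only MAGT1 passed. MAGT1 and TUSC3 are the alternative oxidoreductase subunits of the complex form that uses the catalytic subunit STT3B. MAGT1 had log2 values of 10.17, 10.37 and 10.38 in siGNE cells, against 11.53, 11.34 and 11.51 in control cells. Each siGNE value lay below each control value, and the fall was seen in every pair, at -1.36, -0.97 and -1.13. MAGT1 fell by 1.15 (SE 0.11), to 44.9% of the control level, with a limma adjusted p of 0.0241 (0.0604 without the block). Its other probe sets fell by 1.34 and 1.21 (limma adjusted p 0.0244 and 0.0242). Only 57 tested genes had a more negative difference than MAGT1.

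TUSC3 had 5.90, 6.53 and 6.21 in siGNE cells, against 6.77, 6.75 and 6.43 in control cells. It was lower in each pair, the groups overlapped, and the difference of -0.44 did not pass (SE 0.16, limma adjusted p 0.144). Pair 1 carried much of it, and without that pair it was -0.22. Another probe set of TUSC3, marked as prone to cross-hybridisation and therefore not used, fell by 0.54 (limma adjusted p 0.0355). The remaining tested probe sets of TUSC3 differed by -0.39, with the same mark, and by -0.23, and did not pass. RPN2, a structural subunit, had 12.68, 12.52 and 12.80 in siGNE cells, against 12.84, 12.83 and 13.12 in control cells. Its groups did not overlap, and its difference was -0.26 (SE 0.09, limma adjusted p 0.125). The other probe sets of RPN2, also marked as prone to cross-hybridisation, differed by -0.26 and -0.30.

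The catalytic subunits did not pass. STT3B differed by -0.06, with a 95% interval from -0.27 to 0.15. STT3A differed by -0.03 with a wider interval, from -0.58 to 0.53, because its pairs went apart, at -0.55, 0.52 and -0.04. RPN1 behaved alike, at -0.65, 0.32 and -0.17 in the pairs, so the arrays give little precision for both. OSTC, an accessory subunit of the STT3A form, differed by -0.21, and the core subunits DDOST and DAD1 by 0.07 and 0.02.

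**Figure D2:**
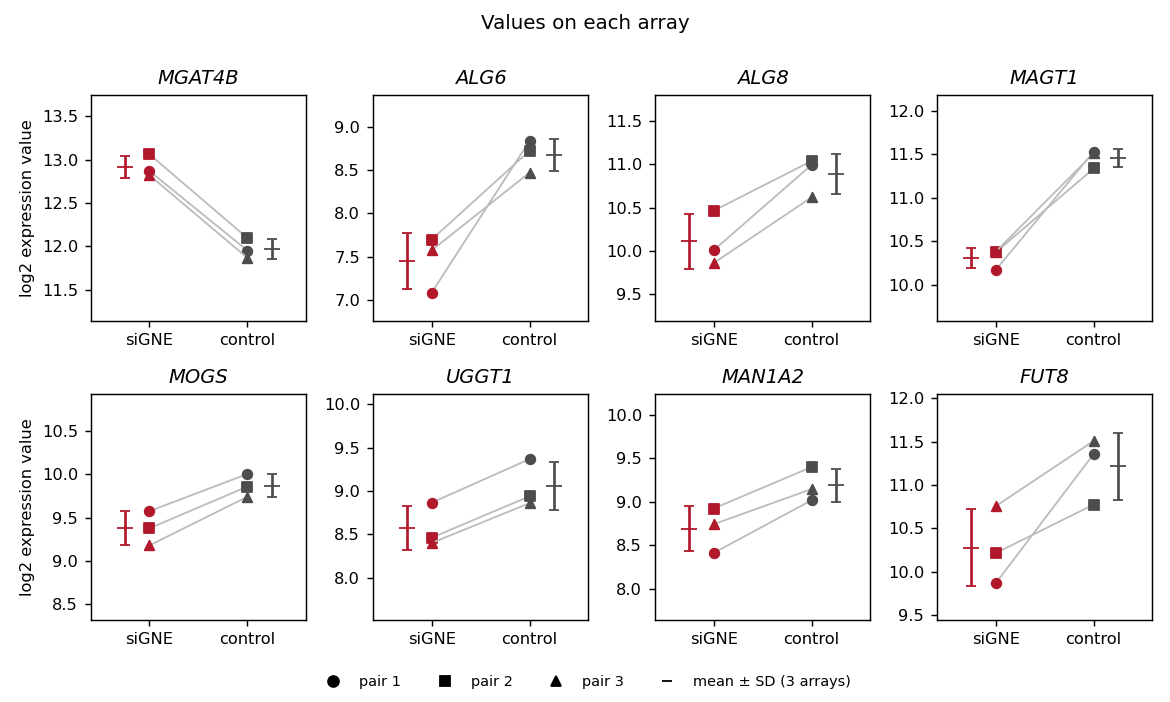
Log2 expression values on each array for the 7 genes that passed and for FUT8, which did not, siGNE on the left and control on the right of each panel. Grey lines join arrays of 1 pair, and the bars beside them are the mean ± SD over 3 arrays. All panels span the same range, and UGGT1 is the one panel in which siGNE and control values overlap.

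Among the enzymes that trim glucose in the ER and put it back, MOGS and UGGT1 fell. MOGS, glucosidase I, removes the outermost glucose, the one that ALG10 adds. It had log2 values of 9.57, 9.38 and 9.18 in siGNE cells, against 10.00, 9.86 and 9.74 in control cells. The groups did not overlap, and the pairs were alike at -0.43, -0.48 and -0.56. MOGS fell by 0.49 (SE 0.09), to 71.2% of the control level, with a limma adjusted p of 0.0407 (0.227 without the block). UGGT1, which adds a glucose back to glycoproteins that have not folded, had 8.86, 8.46 and 8.40 in siGNE cells, against 9.37, 8.94 and 8.86 in control cells. Across pairs its values overlapped, by the siGNE array of pair 1, but within pairs the difference was even, at -0.50, -0.48 and -0.46. UGGT1 fell by 0.48 (SE 0.08, limma adjusted p 0.0395, and 0.345 without the block). Its 4 other probe sets differed by -0.29 to -0.09 and did not pass, and with all its probe sets averaged the difference was -0.25 and did not pass.

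GANAB, the catalytic subunit of glucosidase II, which removes the inner glucoses, had 12.19, 11.91 and 12.23 in siGNE cells, against 12.42, 12.34 and 12.51 in control cells. Its groups did not overlap, and the difference of -0.31 did not pass (SE 0.09, limma adjusted p 0.0920). UGGT2, the paralog of UGGT1, differed by -0.20. Its other tested probe sets differed by -0.11, 0.15 and 0.58, the last with a mean of only 4.62. MAN1B1, the ER mannosidase, was the exception in direction. It had 9.91, 9.48 and 9.61 in siGNE cells, against 9.31, 9.41 and 9.43 in control cells, and every siGNE value lay above every control value. Its difference of 0.28 did not pass (SE 0.13, limma adjusted p 0.216), and without pair 1 it was 0.12.

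Of the 4 tested Golgi mannosidases, MAN1A2 fell by the probe set used, and its probe sets disagree. MAN1A1 and MAN1A2 are class I enzymes, which trim the mannose chain ahead of branching. MAN1A2 had log2 values of 8.41, 8.92 and 8.74 in siGNE cells, against 9.02, 9.40 and 9.15 in control cells. The groups did not overlap, and MAN1A2 fell by 0.50 (SE 0.09, limma adjusted p 0.0425, and 0.292 without the block). Its other 3 tested probe sets differed by 0.21, 0.16 and 0.30 and did not pass, and the mean of all its probe sets differed by 0.05, so the fall rests on 1 probe set. MAN1A1 had 9.22, 9.71 and 9.66 in siGNE cells, against 8.62, 9.31 and 9.61 in control cells. It was higher in each pair with overlapping groups, and its difference of 0.35 did not pass (SE 0.13, limma adjusted p 0.153), and without pair 1 it was 0.22.

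MAN2A1, a class II mannosidase that acts after the first antenna is started, had 7.84, 7.89 and 7.70 in siGNE cells, against 8.33, 8.08 and 8.10 in control cells. The groups did not overlap, and the difference of -0.36 did not pass (SE 0.10, limma adjusted p 0.0833). Another of its probe sets fell by 0.49 (limma adjusted p 0.0480), and a further one differed by -0.40 and did not pass (limma adjusted p 0.213). Its paralog MAN2A2 differed by -0.03, with pairs at 0.38, -0.15 and -0.32. The untested MAN1C1 lay at background, between 2.40 and 2.44 on siGNE arrays and between 2.40 and 2.44 on control arrays.

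Branching is where the only rise was found. MGAT4B and MGAT4A add the same branch to the glycan core. MGAT4B had log2 values of 12.87, 13.06 and 12.82 in siGNE cells, against 11.95, 12.10 and 11.87 in control cells. The pairs agreed closely, at 0.92, 0.96 and 0.95, and the lowest siGNE value stood above the highest control value. MGAT4B rose by 0.94 (SE 0.08), which is 1.92-fold (limma adjusted p 0.0230, and 0.0784 without the block). Its other probe set rose by 0.76 (limma adjusted p 0.0398). Of the 10733 tested genes 99 had a larger positive difference. MGAT4A had 7.67, 8.03 and 8.31 in siGNE cells, against 8.07, 8.51 and 8.55 in control cells. It was lower in each pair, the groups overlapped, and its difference of -0.37 did not pass (SE 0.09, limma adjusted p 0.0697). The other tested probe sets of MGAT4A differed by 0.17 and -0.28, the last with a mean of only 4.46.

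MGAT1, which starts the first antenna and so opens the way to all complex glycans, had 8.45, 8.26 and 8.03 in siGNE cells, against 8.63, 8.64 and 8.43 in control cells. Its difference of -0.32 did not pass (SE 0.09, limma adjusted p 0.0966), and its groups overlapped. MGAT2, which starts the second antenna, differed by 0.28 with all siGNE values above the control values (limma adjusted p 0.128). MGAT5, whose branch carries long lactosamine chains in many tumours, differed by -0.08, with a 95% interval from -0.29 to 0.13. MGAT3, which adds the bisecting sugar, was not tested, since it lay at background, between 2.89 and 3.07 on siGNE arrays and between 2.84 and 3.01 on control arrays.

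FUT8, the enzyme of core fucose, had the widest difference among the members that did not pass. Its log2 values were 9.87, 10.22 and 10.76 in siGNE cells, against 11.36, 10.78 and 11.51 in control cells. The groups did not overlap, although the highest siGNE and the lowest control value nearly met, and the pairs were uneven at -1.49, -0.56 and -0.75. The difference of -0.93 (SE 0.20) had a limma adjusted p of 0.0538, just over the threshold. FUT8 passed in 6 of the 14 other settings tried, among them the same fit read at an adjusted p under 0.1. In limma without the block its adjusted p was 0.232. Its other probe set fell by 1.09 (limma adjusted p 0.0370).

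The galactosyltransferases that cap the antennae did not pass. B4GALT1 had 10.49, 10.07 and 10.93 in siGNE cells, against 9.95, 9.98 and 10.50 in control cells. It was higher in each pair with overlapping groups, at 0.35 (SE 0.12, limma adjusted p 0.124). Its other tested probe sets differed by 0.41 and 0.36, the last marked as prone to cross-hybridisation. B4GALT4 differed by 0.22, B4GALT3 by -0.02 and B4GALT2 by -0.09.

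Counted over all roles, all siGNE values lay above all control values for 4 of the 44 tested members and below for 12. Of all tested genes 23.3% had groups apart in this way, 9.42% above and 13.9% below. In all 3 pairs 7 members were higher and 22 lower, while 57.9% of all tested genes kept 1 direction in the pairs, 27% higher and 30.9% lower. A difference of at least 0.5 in either direction was seen in 5 members, or 11.4%, against 14.0% of all tested genes.

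**Figure D3:**
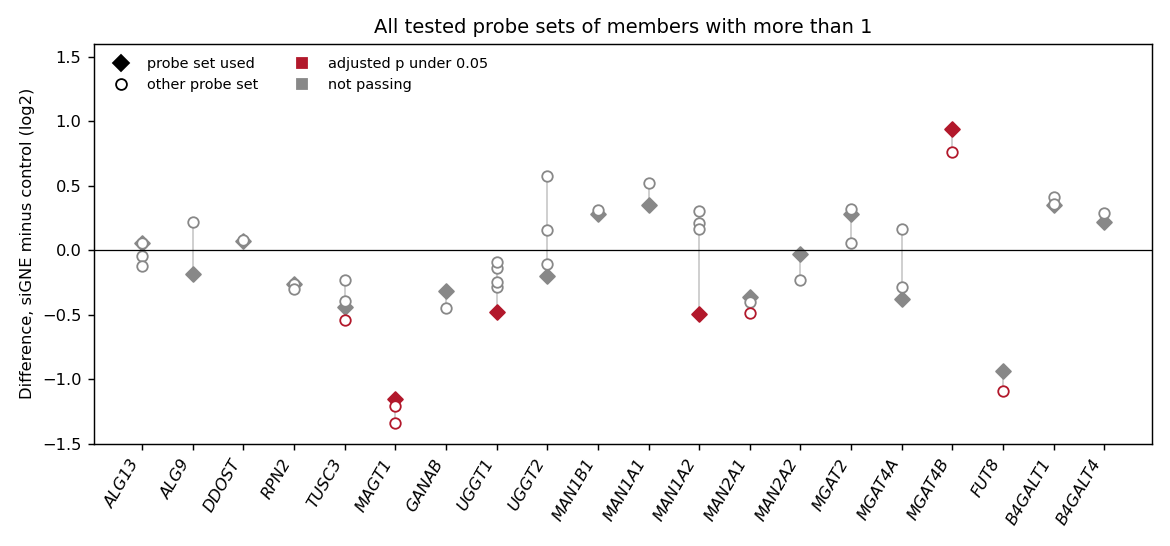
Differences between siGNE and control cells for every tested probe set of the 20 members with more than 1, on the log2 scale. Diamonds are the probe sets used, circles the others, and red marks an adjusted p under 0.05. The probe sets of MAGT1, FUT8 and MGAT4B lie close together, whereas those of MAN1A2 and UGGT2 stand on both sides of zero.

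Probe sets of 1 gene mostly pointed the same way. Of 37 other tested probe sets of the members, 9 pointed the other way from the probe set used. Those 9 belonged to ALG9, ALG13, MAN1A2, MGAT4A and UGGT2, and none of the 9 passed. Another 6 probe sets passed, of MAGT1 (2), FUT8, TUSC3, MGAT4B and MAN2A1, all in the direction of the probe set used. Over all 22085 tested probe sets 9.49% passed, 4.13% higher and 5.35% lower.

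For 6 pairs of related members, the within-array difference between the genes was compared between siGNE and control cells, which tests whether they changed unequally. The difference between MGAT4B and MGAT4A was larger by 1.32 in siGNE cells, with 1.32, 1.45 and 1.20 in the pairs. That between MAGT1 and TUSC3 changed by -0.72, with -0.49, -0.74 and -0.92. That between MAN1A1 and MAN1A2 was larger by 0.85, with 1.21, 0.88 and 0.45, but only by 0.39 with all tested probe sets averaged. These 3 comparisons had an exact two-sided permutation p of 0.1, the smallest that 3 against 3 arrays allow, and an adjusted p of 0.2 over the 6 pairs, so none could pass this test, which makes no use of the pairing. STT3A against STT3B (0.03), MAN2A1 against MAN2A2 (-0.33) and UGGT1 against UGGT2 (-0.28) had an exact permutation p of 0.9, 0.2 and 0.5.

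**Figure D4:**
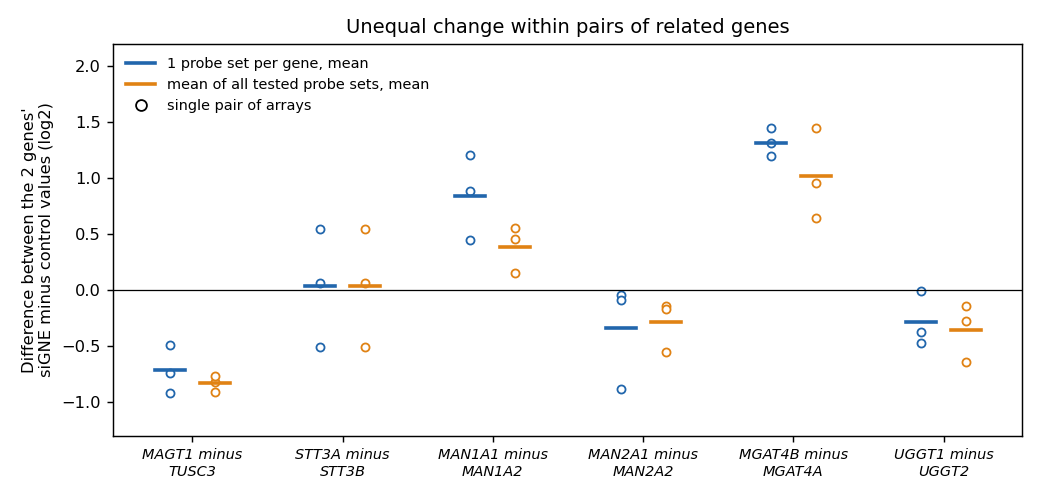
Change in the within-array log2 difference between 2 related genes, siGNE minus control, for 6 gene pairs. Short lines are means over the 3 pairs of arrays and circles the single pairs, with 1 probe set per gene in blue and the mean of all tested probe sets in orange. By both choices of probe sets every pair lies above zero for MGAT4B minus MGAT4A and MAN1A1 minus MAN1A2, and below it for MAGT1 minus TUSC3, MAN2A1 minus MAN2A2 and UGGT1 minus UGGT2, while STT3A minus STT3B has both signs.

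Of 36 other genes of the pathway, 31 were tested, 2 rose and 2 fell. That is 12.9% of them, against 9.89% of all tested genes (4.11% higher and 5.79% lower). TMEM258, a small core subunit of the oligosaccharyltransferase, had log2 values of 12.22, 12.52 and 12.31 in siGNE cells, against 13.11, 13.26 and 13.02 in control cells. The groups were wholly apart, and TMEM258 fell by 0.78 (SE 0.09, limma adjusted p 0.0256, and 0.104 without the block). KRTCAP2, which joins the STT3A form of the same complex, had 12.14, 12.38 and 12.04 in siGNE cells, against 12.72, 12.76 and 12.42 in control cells. Its groups did not overlap either, and its difference of -0.44 missed the threshold (SE 0.09, limma adjusted p 0.0518). OST4, the smallest subunit, differed by 0.04.

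MANEA, a Golgi endomannosidase that removes glucose together with a mannose and so offers a way round MOGS and GANAB, had 7.94, 7.97 and 7.75 in siGNE cells, against 8.68, 8.51 and 8.38 in control cells. Its groups did not overlap, and MANEA fell by 0.63 (SE 0.09, limma adjusted p 0.0304, and 0.131 without the block). EDEM1, which helps to send misfolded glycoproteins to degradation, had 9.95, 10.28 and 10.38 in siGNE cells, against 9.45, 9.65 and 9.99 in control cells. It was higher in each pair, with overlapping groups, and rose by 0.50 (SE 0.09, limma adjusted p 0.0438, and 0.311 without the block). GFUS, the last enzyme of the route to the fucose donor GDP-fucose, had 11.22, 11.24 and 11.05 in siGNE cells, against 10.77, 10.74 and 10.58 in control cells. Its groups did not overlap, and it rose by 0.47 (SE 0.08, limma adjusted p 0.0407, and 0.175 without the block). The other probe set of GFUS differed by 0.32 and did not pass (limma adjusted p 0.122).

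The cargo receptor subunit MCFD2 had log2 values of 13.43, 13.09 and 12.84 in siGNE cells, against 12.95, 12.62 and 12.51 in control cells. It was higher in each pair with overlapping groups, at 0.43 (SE 0.09, limma adjusted p 0.0505). The deglycosylating enzyme NGLY1 had 10.84, 10.94 and 10.54 in siGNE cells, against 10.52, 10.46 and 10.09 in control cells, with all siGNE values above the control values. Its difference of 0.42 missed the threshold (SE 0.09, limma adjusted p 0.0522). SLC35A3, a Golgi sugar nucleotide transporter, had 11.13, 11.17 and 10.22 in siGNE cells, against 10.54, 10.67 and 9.97 in control cells. Its groups overlapped and its difference was 0.45 (SE 0.10, limma adjusted p 0.0621). The lectin chaperone CANX differed by -0.01, with a 95% interval from -0.22 to 0.21. The median over the 31 genes was 0.04, against -0.02 over all tested genes.

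**Figure D5:**
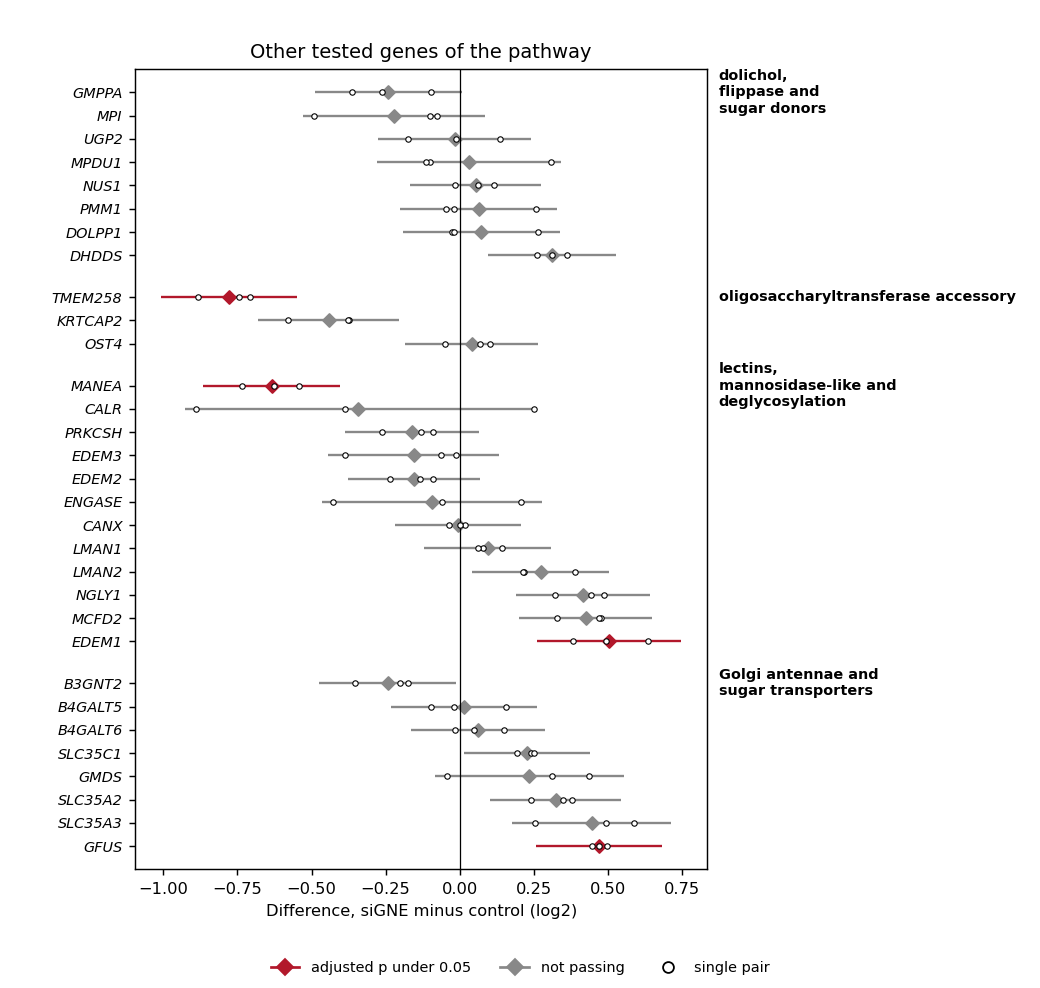
Differences between siGNE and control cells for the 31 other tested genes of the pathway, on the log2 scale. Diamonds are limma estimates with the replicate block, lines their 95% intervals and open circles the 3 single pairs. TMEM258 and MANEA fell and EDEM1 and GFUS rose, marked in red.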

How the data were processed

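Labelled cRNA from 6 samples was hybridised to 1 array each, per the labels' protocols. The deposited table holds log2 expression values that the authors made with GCRMA, which models background from probe sequence, per the submitters' processing notes. The version of GCRMA, and which arrays it was run on together, are not stated there. Arrays have no read depth, and their number limits the precision.

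Of 54675 probe sets, 41097 had 1 gene symbol in the platform annotation, 1801 had several and 11777 had none. Symbols were updated by gene identifier with a RefSeq table (GRCh38.p14), where 41043 matched. Each gene was represented by the probe set with the highest mean over the 6 arrays, one marked as prone to cross-hybridisation only if there was no other. The 62 control probe sets were left out.

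The values were fitted with limma 3.58.1 in R 4.3.3 (lmFit and eBayes), siGNE minus control with the title number as a block, which leaves 2 residual degrees of freedom. P-values were adjusted by Benjamini-Hochberg over the 22085 probe sets with a mean above 4, of which 9.49% passed. The pairing was checked by correlating deviations from the group means, which gave 0.58, 0.71 and 0.83 for arrays of the same number and -0.64 to 0.17 otherwise. The fit was tested on simulated data. Every member is named. Values on each array are given for the members that passed and for the 2 with the smallest unadjusted p among the others of each role, and of the other pathway genes for those that passed and the next 4. MGAT2, RPN1, STT3A and other members with shorter accounts were described after their values were seen. Members, lists and tests were chosen with earlier results of these data known. The alternatives changed the block, the filter, a floor, the normalization, the variance model, array weights, the threshold, the choice of probe sets and the pairs included.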

Additional observations from a re-analysis of the deposited data

How the results depend on the processing

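All counts of genes passing limma were 0 without the replicate block, without the filter and with the arrays of any 1 pair left out, for members that rose (1 in the fit reported) or fell (6) and for other pathway genes that rose (2) or fell (2). Over all tested genes 3 of 10733 passed without the block, 0 of 19775 without the filter and 0 of 10733 with any pair left out. The counts of 0 are therefore not particular to these genes. Unadjusted p under 0.05 in limma was reached by 8 of 44 members without the block, against 1745 of 10733 tested genes (16.3%). Without the filter it was reached by 22 of 46 members, against 3672 of 19775 genes, which include those with a mean below 4. In the fit reported it was reached by 19 of 44 members, against 3490 of 10733 genes. With a pair left out it was reached by 10 to 13 of 44 members, against 2459 to 2700 of 10733 genes. Those last fits have 1 residual degree of freedom less. Members that rose numbered 2 with a trended variance and 2 with probe sets averaged, and 11 fell at an adjusted p under 0.1. Other pathway genes that rose numbered 5 with a mean above 6, 4 with quantile normalization, 4 with median centring, 6 with a trended variance, 4 with array weights, 7 at an adjusted p under 0.1 and 5 with probe sets averaged. All tested genes moved likewise, counted in either direction. Of them 22.6% passed at an adjusted p under 0.1, 19.0% with a mean above 6 and 15.8% with a trended variance. With probe sets averaged 15.7% passed, with median centring 12.6%, with quantile normalization 12.2% and with array weights 11.2%. The GNE difference kept its sign, at -1.88 without the block and without the filter and from -2.17 to -1.45 with a pair left out. GNE passed in none of these fits (limma adjusted p 0.131 without the block and 0.265 without the filter). The median of the members was -0.047 with median centring, -0.11 with array weights and from -0.13 to -0.085 with a pair left out. MGAT4B ran from 0.85 to 0.99, MAGT1 from -1.25 to -1.05, ALG6 from -1.39 to -0.96, ALG8 from -0.87 to -0.67 and MOGS from -0.52 to -0.45 over all 14 settings, each passing in 9. Among the 9 is the threshold of 0.1, which reads the reported fit more loosely, so these genes could not fail it.

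Of the members that passed, only MAN1A2 reversed its sign under an alternative, to 0.045 with probe sets averaged. The other reversals were of members that did not pass. With probe sets averaged ALG9 stood at 0.017, ALG13 at -0.013 and UGGT2 at 0.11. With quantile normalization DPM2 stood at 0.0037 and B4GALT3 at 0.0028. With median centring the values were 0.0019 for DPM2, 0.0082 for ALG5, 0.014 for STT3A, 0.010 for MAN2A2 and 0.021 for B4GALT3, and STT3A stood at 0.078 with array weights. With a pair left out the ranges were -0.20 to 0.055 for DOLK, -0.088 to 0.049 for DPM2, -0.17 to 0.0068 for ALG14, -0.33 to 0.071 for ALG12, -0.097 to 0.0032 for ALG5, -0.30 to 0.24 for STT3A, -0.077 to 0.17 for DDOST, -0.41 to 0.079 for RPN1, -0.059 to 0.087 for DAD1, -0.24 to 0.11 for MAN2A2 and -0.079 to 0.049 for B4GALT3. The causes were not tested.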
